A study of Homo sapiens with 9 samples.

Results

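Epithelial-mesenchymal transition (EMT) regulators were examined as a named set of 10 genes among the 58735 genes in the count table. Member rows were found by gene symbol, without using their counts. The set itself was chosen with earlier results of these data known, so the member shares and medians below are descriptive. VIM and FN1 are mesenchymal structural genes, ZEB1, ZEB2, SNAI1, SNAI2 and TWIST1 encode EMT transcription factors, and EPCAM, GRHL2 and ESRP1 are epithelial genes. All 10 symbols were found once, and 8 passed the filter on low counts. GRHL2 and ESRP1 did not. EMT is the process in which epithelial cells loosen their junctions and take up mesenchymal traits. SNAI, ZEB and TWIST proteins are transcription factors that repress epithelial genes, and SNAI and ZEB proteins do so through E-box sequences. GRHL2 and the splicing regulator ESRP1 maintain the epithelial state, and ZEB1 and GRHL2 repress each other.

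RNA came from SKOV3, a human ovarian carcinoma line, in 3 groups of 3 libraries. The groups were WT CDK9 cells under basal conditions, WT CDK9 cells given an ALK inhibitor for 24 h, and Tyr19Phe CDK9 cells under basal conditions, in which the tyrosine that ALK can phosphorylate is replaced by phenylalanine. CDK9 is the kinase of P-TEFb, which releases paused RNA polymerase II. The comparisons ask which transcripts differ when ALK is inhibited and when CDK9 lacks this phosphorylation site. The study describes stable lines re-expressing CDK9 after depletion of the endogenous kinase, but does not state this for the RNA samples. The inhibitor and its dose are not given for these libraries in the sources used here, and a vehicle is not named for the WT CDK9 group. The Tyr19Phe CDK9 and WT CDK9 cells are separate lines, so the mutation and other differences between the lines cannot be told apart. The labels do not say whether the libraries of a group came from separate cultures, so p-values measure the spread between these libraries.

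Each library held 18169050 to 29320184 counted reads. The Tyr19Phe CDK9 libraries were deeper than the WT CDK9 libraries, with a median total 1.45 times as large. Correlations between libraries of the same group, over log2 values of tested genes, were 0.975 to 0.986. CDK9 itself was at 48.6 ± 1.03 CPM in WT CDK9 cells, 45.6 ± 1.77 CPM in ALK inhibitor-treated cells and 55.0 ± 3.94 CPM in Tyr19Phe CDK9 cells (mean ± SD, n = 3 each). CPM are counts scaled to the total of the tested genes in a library, with TMM factors. Gene counts cannot separate the mutant from the wild-type transcript. Of 12 markers of ovarian carcinoma lines, 10 passed the filter, and the summed level of the 12 was 5409 to 6277 CPM. MUC16 and EMX2 did not pass, with at most 9 and 4 counts in any library. ERBB2, KRT7 and KRT8 had the highest means, 1800, 1620 and 1307 CPM in WT CDK9 cells. In Tyr19Phe CDK9 against WT CDK9 cells, 4 of the 10 were higher and 3 lower at an edgeR adjusted p under 0.05. These were 40% and 30%, beside 7.61% and 10.4% of all tested genes. With the inhibitor 3 were higher and 1 lower (30% and 10%, beside 1.82% and 2.73%). None of 9 leukocyte markers passed, with a summed level of 0.165 to 0.962 CPM, and 1 of 7 endothelial markers passed (KDR). The summed endothelial level was 0.975 to 3.10 CPM in WT CDK9, 1.71 to 2.36 CPM in ALK inhibitor-treated and 3.52 to 4.72 CPM in Tyr19Phe CDK9 libraries. Of 8 fibroblast markers, 2 passed. Their summed level was 104 to 109 CPM in WT CDK9, 116 to 152 CPM in ALK inhibitor-treated and 32.0 to 46.9 CPM in Tyr19Phe CDK9 libraries, and most of it was COL1A1, while DCN and LUM did not exceed 0.158 CPM in any library. In bulk RNA, fewer cells expressing a gene and less RNA per cell cannot be told apart.

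The sequences that link these genes are short. ZEB1 and ZEB2 transcripts are known targets of the miR-200 family, and ZEB proteins repress the miR-200 genes in turn. The mature family members are shown because the loci that produce them were also in the count table. Capitals mark the seed, bases 2 to 8, which pairs with the target (RefSeq, GRCh38.p14).
hsa-miR-200b-3p: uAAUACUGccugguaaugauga
hsa-miR-200c-3p: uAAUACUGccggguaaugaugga
hsa-miR-429: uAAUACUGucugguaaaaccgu
hsa-miR-200a-3p: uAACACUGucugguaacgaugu
hsa-miR-141-3p: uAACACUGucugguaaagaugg
The first 3 share the seed AAUACUG, and the other 2 share AACACUG. miR-200b, miR-200a and miR-429 lie on chromosome 1, from 1167160 to 1169076, and miR-200c and miR-141 lie on chromosome 12, from 6963742 to 6964176, all on the plus strand. The host transcript of the chromosome 12 pair, MIR200CHG, had 0 counts in all 9 libraries. The annotated hairpin genes had at most 1 count for MIR200B, 9 for MIR200A and 14 for MIR429, and 0 for MIR200C and MIR141. A count table of this kind does not measure mature miRNAs, so these values describe longer transcripts over the loci.

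RefSeq promoter windows, from 250 bases before to 50 after a start site, were available for 4 of the 10 members, VIM, FN1, ZEB1 and ZEB2. E-boxes, read as CACCTG or its reverse complement CAGGTG, were in 20.6% of 35116 windows genome-wide. The windows of VIM, FN1 and ZEB2 held none. Of 7 windows at ZEB1, 1 held 3 E-boxes, 1 held 1 and the others none. The window with 3 is shown because it holds the letters that the EMT factors are known to recognise, in capitals, on the plus strand of chromosome 10 (GRCh38.p14).
ZEB1, chr10:31318966-31318987: ccccaccaCACCTGaggaaaac
ZEB1, chr10:31319123-31319144: tcgtaaacCAGGTGcggtgggg
ZEB1, chr10:31319241-31319262: gatggcccCAGGTGtaagcgca
The first began 242 bases and the next 85 bases before the start site, and the last began within the transcript. The FN1 promoter is shown because FN1 was among the genes that rose with the inhibitor. Its 250 bases before the start lie on the minus strand of chromosome 2, and capitals mark a cAMP response element, TGACGTCA, and a CCAAT box, CCAAT.
FN1, chr2:215436069-215436318: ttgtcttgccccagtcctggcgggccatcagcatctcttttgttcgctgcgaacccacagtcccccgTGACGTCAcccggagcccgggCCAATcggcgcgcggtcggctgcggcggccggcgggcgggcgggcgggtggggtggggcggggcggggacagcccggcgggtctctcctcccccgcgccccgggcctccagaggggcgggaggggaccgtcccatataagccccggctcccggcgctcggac
The cAMP response element began 183 and the CCAAT box 162 bases before the start. TGACGTCA was in 1.85% of all windows, and CCAAT, on either strand, in 34.6%. These matches describe the letters of the windows, and no binding was measured.

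SKOV3 cells expressed VIM and FN1 at high levels and EPCAM at a level near those of ZEB1 and TWIST1, while GRHL2 and ESRP1 were at or near 0. Levels were compared between genes as CPM per kilobase of the listed gene length, which merges the exons of all transcripts. VIM, the intermediate filament vimentin, had a mean of 251 CPM per kilobase over the 9 libraries (219 to 296), above 99.5% of tested genes. FN1, which encodes the matrix protein fibronectin, had a mean of 187 CPM per kilobase (161 to 215), above 99.3%. The ranges of VIM and FN1 did not overlap.

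Among the transcription factors, SNAI2 (Slug) had the highest level, with a mean of 41.9 CPM per kilobase (30.4 to 55.6), above 94.2% of tested genes. SNAI2 made up 67.8 ± 4.71% of the summed CPM per kilobase of the 5 factors in WT CDK9 cells, 73.2 ± 2.04% in ALK inhibitor-treated cells and 67.7 ± 2.52% in Tyr19Phe CDK9 cells (mean ± SD, n = 3). TWIST1, a basic helix-loop-helix factor, was at 8.31 (5.57 to 10.0, above 66.9% of tested genes), ZEB1, a zinc-finger homeobox factor, at 7.38 (5.94 to 8.52, above 64.1%), and EPCAM, an epithelial surface adhesion protein, at 7.16 CPM per kilobase (3.86 to 9.14, above 63.4%). The ranges of these 3 neighbours overlapped, and their order differed when the length of the canonical transcript was used, with means of 10.4 for TWIST1, 10.7 for ZEB1 and 11.7 CPM per kilobase for EPCAM. SNAI1 (Snail) followed at 2.24 CPM per kilobase (1.36 to 3.06), above 38.2% of tested genes.

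ZEB2, the paralogue of ZEB1, was near the lower limit of what was tested, with a mean of 0.0493 CPM per kilobase (0.0225 to 0.0811), above 0.361% of tested genes. ESRP1 had 0, 0 and 3 counts in WT CDK9, 1, 8 and 0 counts in ALK inhibitor-treated and 1, 0 and 0 counts in Tyr19Phe CDK9 libraries. GRHL2 had 0 counts in all 9 libraries, which allows a level of up to 0.102 to 0.165 CPM per library (3 counts, counting error only). No fold is given for these 2 genes. CDH1 (E-cadherin), the classical target of the EMT factors, was also near 0, with 1 to 18 counts per library.

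**Figure D1:**
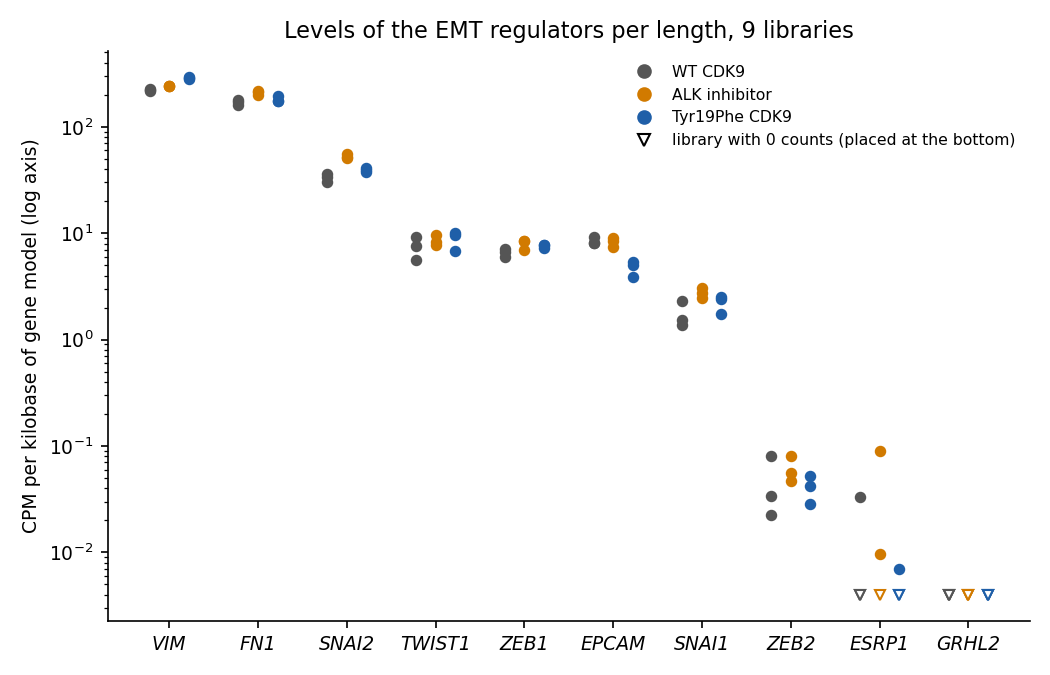
Level of each of the 10 EMT regulators in the 9 libraries, as CPM per kilobase of gene length on a log axis, with 1 point per library coloured by group and open triangles for libraries with 0 counts. VIM, FN1 and SNAI2 stood above the other members, ZEB2 lay under 0.1, and GRHL2 had 0 counts in all 9 libraries.

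ALK inhibition was followed by higher RNA of 4 of the 8 tested members, SNAI2, FN1, ZEB1 and VIM, and by lower RNA of none. Over all 16350 tested genes, 4.55% were called in this comparison, 1.82% higher and 2.73% lower. The median log2 fold change was 0.29 over the 8 members and -0.0010 over all tested genes. Calls were made by edgeR's quasi-likelihood test at a Benjamini-Hochberg adjusted p under 0.05 over all tested genes, and values are TMM-scaled CPM.

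SNAI2 (ENSG00000019549, chromosome 8, 48917604 to 48921740, minus strand) had the widest called difference of the members in this comparison. It was at 114, 103 and 123 CPM in the WT CDK9 libraries, at 173, 177 and 189 CPM in the ALK inhibitor-treated libraries and at 132, 129 and 139 CPM in the Tyr19Phe CDK9 libraries. The 3 groups did not overlap. Inhibitor-treated libraries were the highest and WT CDK9 libraries the lowest. SNAI2 rose 1.58-fold with the inhibitor (log2 fold change 0.66, SE 0.06, edgeR adjusted p = 6.91e-10).

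FN1 (ENSG00000115414, chromosome 2, 215360440 to 215436172, minus strand) was at 2955, 2789 and 3098 CPM in WT CDK9 libraries and at 3731, 3675 and 3470 CPM after the inhibitor. All inhibitor-treated libraries lay above all WT CDK9 libraries. FN1 rose 1.23-fold (log2 fold change 0.30, SE 0.04, edgeR adjusted p = 4.78e-07).

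ZEB1 (ENSG00000148516, chromosome 10, 31318495 to 31529814, plus strand) was at 61.7, 51.3 and 57.1 CPM in WT CDK9 libraries and at 73.7, 60.3 and 72.9 CPM after the inhibitor. The groups overlapped, since the lowest treated library lay under the highest WT CDK9 library. The gene passed the test with a 1.22-fold difference (log2 fold change 0.28, SE 0.08, edgeR adjusted p = 0.0334). This call was lost without WT CDK9 replicate 2 (adjusted p = 0.202 by edgeR), WT CDK9 replicate 3 (0.0711), ALK inhibitor replicate 1 (0.186) or ALK inhibitor replicate 3 (0.184).

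VIM (ENSG00000026025, chromosome 10, 17228259 to 17237593, plus strand) was at 1131, 1171 and 1137 CPM in WT CDK9 libraries and at 1255, 1242 and 1239 CPM after the inhibitor. The groups did not overlap, but the difference was small, 1.09-fold (log2 fold change 0.12, SE 0.03, edgeR adjusted p = 0.0179). The call was kept in 1 of 6 fits that left out a library. It was lost without WT CDK9 replicate 1 (adjusted p = 0.0984 by edgeR), WT CDK9 replicate 3 (0.0615), ALK inhibitor replicate 1 (0.0678), ALK inhibitor replicate 2 (0.0534) or ALK inhibitor replicate 3 (0.0510).

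SNAI1 (ENSG00000124216, chromosome 20, 49982999 to 49988886, plus strand) did not pass the test. It was at 2.57, 3.91 and 2.30 CPM in WT CDK9 libraries (50, 74 and 43 counts), at 4.65, 4.17 and 5.17 CPM after the inhibitor (98, 76 and 100 counts) and at 2.95, 4.20 and 4.07 CPM in Tyr19Phe CDK9 libraries (87, 118 and 108 counts). Inhibitor-treated libraries lay above all WT CDK9 libraries. The log2 fold change of 0.67 (SE 0.27, 95% interval 0.12 to 1.23) was about as large as that of SNAI2, but the spread at these low counts was wider (edgeR adjusted p = 0.205). Groups of 4 of the 8 tested members did not overlap between inhibitor and WT CDK9 (VIM, FN1, SNAI1 and SNAI2), beside 19.6% of all tested genes.

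The other 3 tested members gave no call with the inhibitor. TWIST1 (ENSG00000122691, chromosome 7, 19020991 to 19117672, minus strand) was at 15.5, 18.6 and 11.3 CPM in WT CDK9, 19.7, 16.9 and 15.9 CPM in inhibitor-treated and 20.4, 19.8 and 13.9 CPM in Tyr19Phe CDK9 libraries. All 3 groups overlapped, and the log2 fold change with the inhibitor was 0.21 (SE 0.16, edgeR adjusted p = 0.615). ZEB2 (ENSG00000169554, chromosome 2, 144364364 to 144524583, minus strand) had 11, 38 and 16 counts in WT CDK9, 25, 37 and 27 in inhibitor-treated and 39, 20 and 28 in Tyr19Phe CDK9 libraries, too few to resolve a difference of the size seen for SNAI2 (log2 fold change 0.43, SE 0.54, edgeR adjusted p = 0.809). EPCAM had a log2 fold change of -0.02 with a 95% interval of -0.28 to 0.24 (edgeR adjusted p = 0.973).

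**Figure D2:**
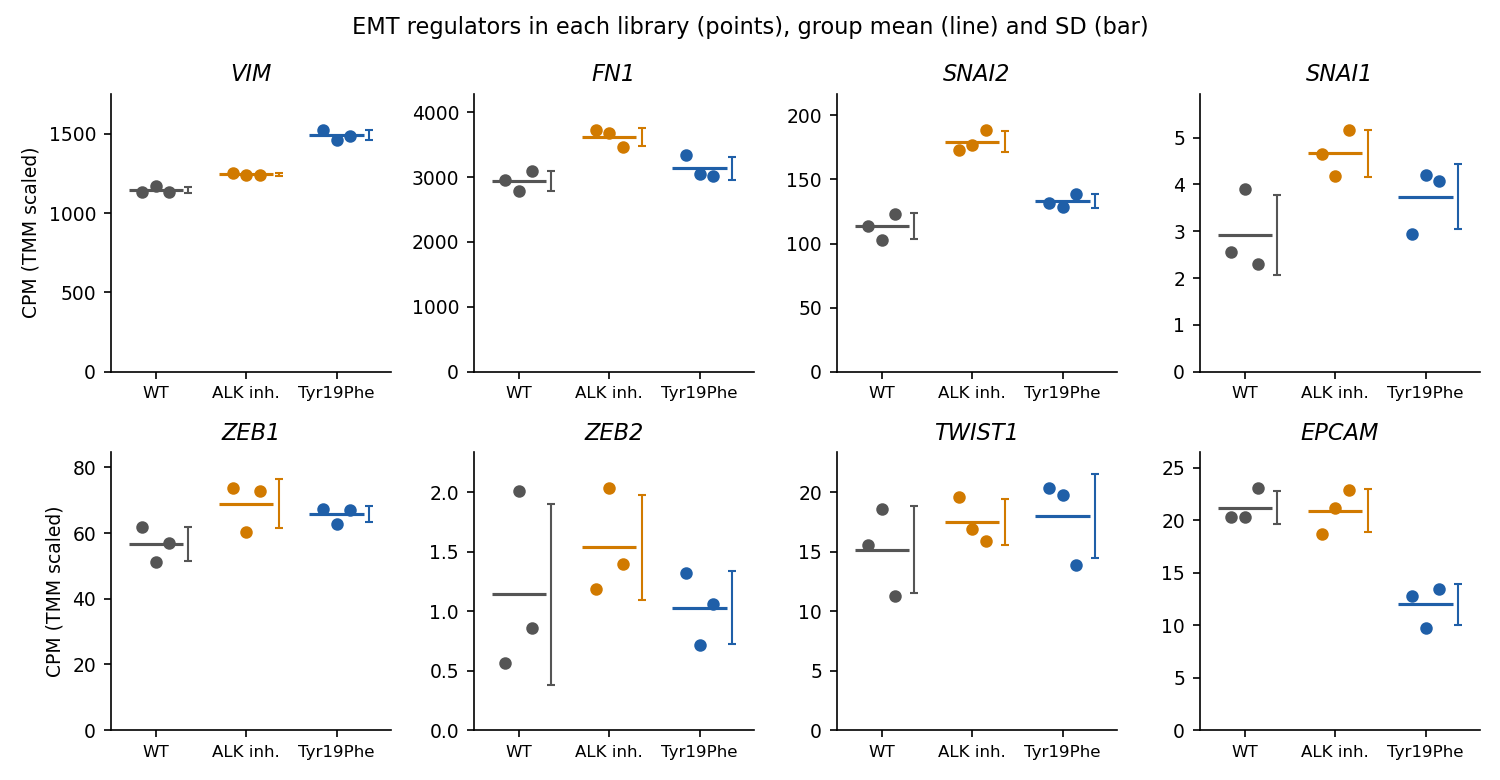
TMM-scaled CPM of the 8 tested members, with 1 point per library, the group mean as a line and the SD as a bar beside it, on axes that start at 0 and differ between panels. SNAI2 was highest in the 3 inhibitor-treated libraries (173 to 189 CPM), VIM was highest in the 3 Tyr19Phe CDK9 libraries (1465 to 1526 CPM), and EPCAM was lowest in the Tyr19Phe CDK9 libraries (9.72 to 13.5 CPM).

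Tyr19Phe CDK9 cells differed from WT CDK9 cells in 3 of the 8 tested members, with VIM and SNAI2 higher and EPCAM lower. Over all tested genes, 18% were called in this comparison, 7.61% higher and 10.4% lower. The median log2 fold change was 0.22 over the members and 0.0035 over all tested genes. Groups of 4 members did not overlap (VIM, ZEB1, SNAI2 and EPCAM), beside 32.6% of all tested genes.

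EPCAM (ENSG00000119888, chromosome 2, 47345158 to 47387601, plus strand) was at 20.3, 20.3 and 23.0 CPM in WT CDK9 libraries, at 18.7, 21.2 and 22.8 CPM in inhibitor-treated libraries and at 12.7, 9.72 and 13.5 CPM in Tyr19Phe CDK9 libraries. The mutant libraries lay under all 6 libraries of the other groups, which overlapped with each other. In Tyr19Phe CDK9 cells EPCAM fell to 0.565 of its level in WT CDK9 cells (log2 fold change -0.82, SE 0.13, edgeR adjusted p = 1.76e-05). With all libraries thinned to the smallest total, the log2 fold change was -0.82 (edgeR adjusted p = 2.86e-05). Over the 38 tested genes within 5 Mb of EPCAM the median was -0.10 on the log2 scale in the mutant, with 0 called higher and 6 lower. Over all tested genes, 7.61% were called higher and 10.4% lower. With the inhibitor the median of these 38 genes was -0.03, with 0 higher and 4 lower, beside 1.82% and 2.73% of all tested genes. The part of the region in the EPCAM values was not tested.

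VIM was at 1526, 1465 and 1488 CPM in the Tyr19Phe CDK9 libraries, above every other library. It rose 1.30-fold over WT CDK9 cells (log2 fold change 0.38, SE 0.03, edgeR adjusted p = 5.88e-11). Over the 44 tested genes within 5 Mb of VIM the median log2 fold change was 0.23 in the mutant, with 11 called higher and 3 lower, against -0.03 with 0 higher and 1 lower for the inhibitor. Genes within 5 Mb of ZEB1, on the same chromosome, had a median of 0.13 over 40 tested genes in the mutant, with 9 higher and 0 lower. In that comparison 7.61% of all tested genes were higher and 10.4% lower. The part of the region in the VIM and ZEB1 values was not tested.

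SNAI2 rose 1.17-fold in Tyr19Phe CDK9 cells (log2 fold change 0.23, SE 0.06, edgeR adjusted p = 0.00416). Over the 15 tested genes within 5 Mb of SNAI2 the median was 0.04 on the log2 scale, with 1 called in each direction. Of all tested genes, 7.61% were called higher and 10.4% lower. ZEB1 was at 67.3, 62.9 and 67.0 CPM in the mutant libraries, above all WT CDK9 libraries, but narrowly missed the threshold (log2 fold change 0.21, SE 0.08, edgeR adjusted p = 0.0585). It passed in 8 of 17 alternatives, with adjusted p from 0.0255 to 0.266 over them, including without WT CDK9 replicate 1 (0.0324 by edgeR). FN1 was at 3340, 3054 and 3018 CPM, a range that overlapped with WT CDK9 (log2 fold change 0.09, SE 0.04, 95% interval 0.02 to 0.16, edgeR adjusted p = 0.0823). FN1 passed in 7 of 17 alternatives (adjusted p from 0.0153 to 0.473), including without WT CDK9 replicate 3 (adjusted p = 0.0153 by edgeR) or Tyr19Phe CDK9 replicate 3 (0.0281).

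The remaining factors gave no call. SNAI1 had a log2 fold change of 0.35 (SE 0.27, edgeR adjusted p = 0.430) and TWIST1 of 0.25 (SE 0.15, edgeR adjusted p = 0.303). ZEB2 had a log2 fold change of -0.15 (SE 0.54, edgeR adjusted p = 0.903).

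The inhibitor and the mutant were then compared directly, since both of the comparisons above share the WT CDK9 libraries. In this contrast 4 of the 8 tested members differed, beside 20.7% of all tested genes (9.57% higher and 11.1% lower in Tyr19Phe CDK9 cells). VIM was higher in Tyr19Phe CDK9 than in inhibitor-treated cells (log2 fold change 0.26, SE 0.03, edgeR adjusted p = 1.03e-07). SNAI2, FN1 and EPCAM were lower, with log2 fold changes of -0.43 (SE 0.06, edgeR adjusted p = 7.05e-07), -0.21 (SE 0.04, adjusted p = 4.72e-05) and -0.80 (SE 0.13, adjusted p = 2.16e-05). The groups of these 4 members did not overlap, beside 34.4% of all tested genes.

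SNAI2 and FN1 were thus highest after the inhibitor, and VIM was highest and EPCAM lowest in the mutant line. ZEB1 had a log2 difference of -0.07 between mutant and inhibitor, with overlapping groups (SE 0.08, edgeR adjusted p = 0.597). The log2 differences were -0.32 for SNAI1 (SE 0.26, edgeR adjusted p = 0.447), -0.57 for ZEB2 (SE 0.53, adjusted p = 0.509) and 0.04 for TWIST1 (SE 0.15, adjusted p = 0.889), and none passed.

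**Figure D3:**
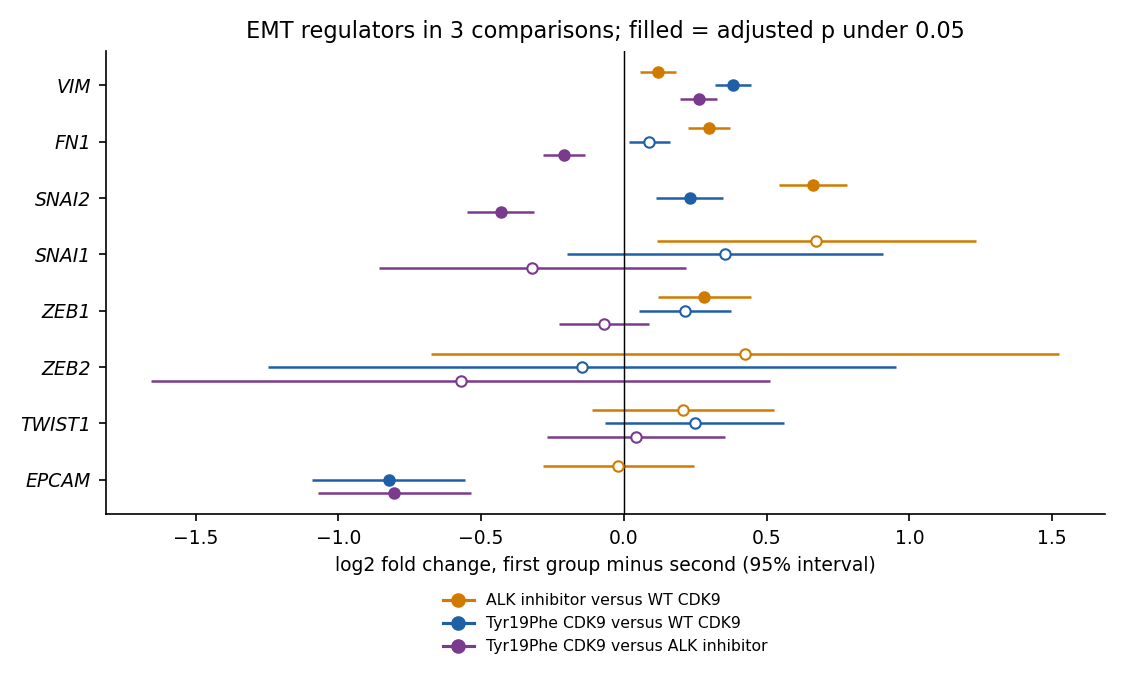
Log2 fold change of each tested member in the 3 comparisons, with the 95% interval as a line and filled points for an edgeR adjusted p under 0.05. Among called members, SNAI2 and FN1 had the largest values with the ALK inhibitor (0.66 and 0.30) and VIM with Tyr19Phe CDK9 (0.38), SNAI1 and ZEB2 had wide intervals, and EPCAM lay at -0.82 and -0.80 in the 2 comparisons of Tyr19Phe CDK9 and at -0.02 with the inhibitor.

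Antisense genes overlap some members, and without known strandedness reads in the overlap cannot be assigned to a strand. VIM-AS1 had 22 to 89 counts per library, against 21267 or more for VIM. Its log2 fold change in Tyr19Phe CDK9 cells was 0.73 (SE 0.39, edgeR adjusted p = 0.221). ZEB1-AS1, which runs opposite to ZEB1 from the same promoter region, had 124 to 298 counts and a log2 fold change of 0.39 in the mutant (SE 0.18, edgeR adjusted p = 0.143). AC003986.2, opposite to TWIST1, had 5 to 27 counts. It was not called in the mutant (log2 fold change 0.23, SE 0.77, edgeR adjusted p = 0.892), and none of these 3 antisense genes was called in any of the 3 comparisons.

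The genes whose pattern over the 9 libraries lay closest to SNAI2 were GNG11, TFPI2 and NTNG1, chosen among 11141 genes at 5 CPM or more by the root mean square difference in centred log2 CPM. These differences were 0.0737, 0.0754 and 0.0771, while SNAI2 itself varied by 0.28 around its mean. GNG11, a G-protein gamma subunit, differed from WT CDK9 by 0.64 on the log2 scale after the inhibitor and by 0.20 in the mutant. TFPI2, a serine protease inhibitor, had 0.62 and 0.11, and NTNG1, a netrin, had 0.59 and 0.23. For EPCAM, which varied by 0.41, the closest were ARRDC4 (0.108), an arrestin-domain protein, BEND4 (0.117) and MXRA8 (0.128), a matrix-associated surface protein. Their log2 fold changes in the mutant were -0.89, -0.68 and -0.72. Fold changes near those of SNAI2 and EPCAM follow from choosing these genes by likeness over the same libraries.

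Other genes of the EMT programme were counted from lists of 139 genes, of which 112 were tested. The lists were chosen with earlier results of these data known, so the shares below are descriptive. With the inhibitor 13 were higher and 7 lower, 11.6% and 6.25% of those tested, beside 1.82% and 2.73% of all tested genes. In the mutant 17 were higher and 25 lower, 15.2% and 22.3%, beside 7.61% and 10.4% of all tested genes. The median log2 fold changes of the list genes were -0.01 and -0.07, beside -0.0010 and 0.0035 over all tested genes.

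Of 26 tested mesenchymal genes other than the members, 9 rose and 2 fell with the inhibitor (34.6% and 7.69%, beside 1.82% and 2.73% of all tested genes), and the median log2 fold change was 0.08. TNC, the matrix protein tenascin-C, was at 32.4 to 33.8 CPM in the WT CDK9 libraries and at 74.4, 68.0 and 60.7 CPM after the inhibitor, a log2 fold change of 1.03 (SE 0.09, edgeR adjusted p = 3.77e-10). GNG11 (0.64) and the fibronectin receptor subunit ITGA5 (0.44, SE 0.06, edgeR adjusted p = 4.68e-06) rose as well. The receptor tyrosine kinase AXL fell by 0.27 (SE 0.04, edgeR adjusted p = 5.81e-06) and the actin-binding TAGLN by 0.17 on the log2 scale. In the mutant TAGLN was higher than in WT CDK9 (log2 fold change 0.42, SE 0.04, edgeR adjusted p = 1.89e-09).

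In Tyr19Phe CDK9 cells 9 of these 26 genes rose and 3 fell (34.6% and 11.5%, beside 7.61% and 10.4% of all tested genes). Their median log2 fold change was 0.08. CDH2 (N-cadherin) was at 163, 156 and 159 CPM in WT CDK9 and at 279, 258 and 267 CPM in the mutant, a log2 fold change of 0.75 (SE 0.05, edgeR adjusted p = 8.08e-14), while its difference after the inhibitor was -0.13 on the log2 scale (SE 0.05, edgeR adjusted p = 0.153). The collagen COL5A1 (0.69) and the gelatinase MMP2 (0.97) also rose. The collagen COL1A1 fell by 1.46 (SE 0.09, edgeR adjusted p = 1.04e-13), the intermediate filament gene NES by 0.56 and AXL by 0.11 on the log2 scale. With the inhibitor COL1A1 was higher than in WT CDK9 (0.35, SE 0.09, edgeR adjusted p = 0.0111). NES was at means of 50.7 CPM in WT CDK9, 73.3 CPM after the inhibitor and 34.4 CPM in the mutant. Between mutant and inhibitor, 7 of the 26 genes were higher and 6 lower in the mutant, with a median log2 difference of -0.01. These were 26.9% and 23.1%, beside 9.57% and 11.1% of all tested genes. COL1A1 and TNC differed in this contrast by -1.81 (SE 0.09, edgeR adjusted p = 2.94e-16) and -0.97 (SE 0.09, adjusted p = 2.97e-10).

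Of 25 tested epithelial junction and surface genes other than EPCAM, 3 rose and 3 fell with the inhibitor (12% each way, beside 1.82% and 2.73% of all tested genes, with a median of -0.03). In the mutant 2 rose and 10 fell (8% and 40%, beside 7.61% and 10.4% of all tested genes, with a median of -0.34). PKP2, a desmosomal plakophilin, was at 50.3, 50.7 and 48.9 CPM in WT CDK9 and at 26.8, 25.7 and 31.1 CPM after the inhibitor (log2 fold change -0.84, SE 0.09, edgeR adjusted p = 4.83e-08). The tight junction protein cingulin, CGN, fell in both comparisons, by 0.68 (SE 0.11) with the inhibitor and by 1.11 (SE 0.11) in the mutant. MAL2, which acts in apical transport, fell by 0.33 and 0.61, and the polarity gene LLGL2 fell by 0.62 in the mutant.

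Some junction genes moved the other way. JUP (plakoglobin) was at 67.4, 67.8 and 62.6 CPM in WT CDK9, at 74.4, 89.2 and 81.2 CPM after the inhibitor and at 131, 119 and 124 CPM in the mutant. It rose by log2 fold changes of 0.31 (SE 0.07, edgeR adjusted p = 0.00373) and 0.92 (SE 0.07, adjusted p = 2.4e-12). F11R, a tight junction adhesion molecule, rose with the inhibitor (0.44), and EVPL, the desmosomal protein envoplakin, rose in the mutant (1.48, SE 0.37). EVPL had few reads, 18 to 30 counts per library in WT CDK9 and 86 to 125 in the mutant. CDH1 was not called, at -1.43 on the log2 scale with the inhibitor (SE 0.88, edgeR adjusted p = 0.497) and -0.14 in the mutant (SE 0.79, edgeR adjusted p = 0.935).

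**Figure D4:**
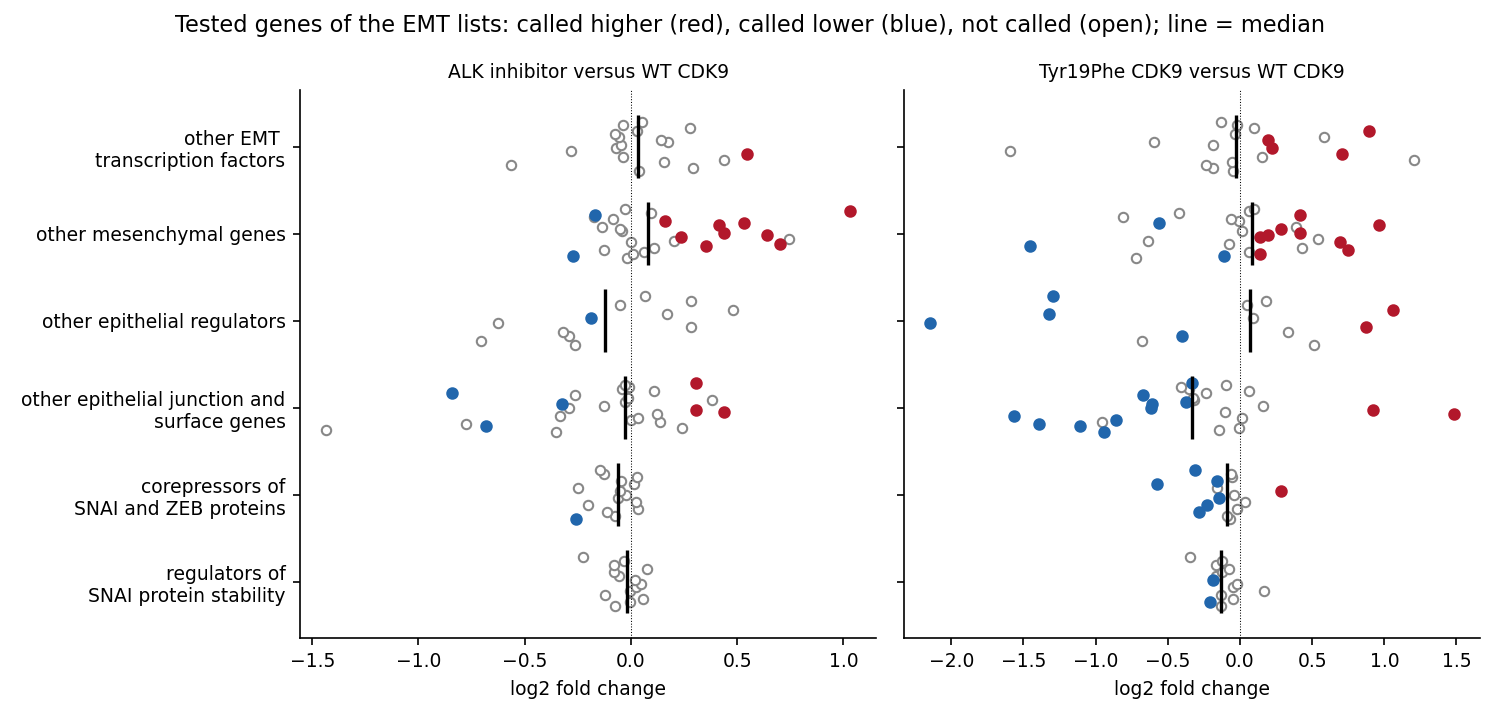
Log2 fold changes of the tested genes of 6 EMT lists, without the 10 members, for the ALK inhibitor (left) and Tyr19Phe CDK9 (right) against WT CDK9, with red points called higher, blue points called lower, open points not called and a line at each list's median. The epithelial junction and surface genes had medians of -0.03 with the inhibitor and -0.34 in the mutant.

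Of 18 other EMT transcription factors tested, 1 rose with the inhibitor (5.56%, beside 1.82% of all tested genes) and 4 rose in the mutant (22.2%, beside 7.61%). None fell in either comparison by edgeR or DESeq2, and at an unadjusted edgeR p under 0.05 there were 0 lower with the inhibitor and 2 in the mutant. The median log2 fold change of the 18 was 0.03 with the inhibitor and -0.03 in the mutant. MSX2, a homeobox factor, rose in both comparisons (0.55, SE 0.16, edgeR adjusted p = 0.0346, and 0.71, SE 0.15, adjusted p = 0.000913). TCF4, an E-protein that binds E-boxes, was at a mean of 8.04 CPM in WT CDK9 and 14.9 CPM in the mutant, without overlap of the libraries (log2 fold change 0.89, SE 0.15, edgeR adjusted p = 4.14e-05). RUNX2 (0.22) and SOX4 (0.19) rose as well.

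Of 12 tested epithelial regulators other than the members, 1 fell with the inhibitor (8.33%, beside 2.73% of all tested genes) and none rose by edgeR or DESeq2, with 1 higher at an unadjusted edgeR p under 0.05. In the mutant 2 rose, KLF4 (1.06, SE 0.15) and FOXA2 (0.87, SE 0.27), and 4 fell, 16.7% and 33.3% beside 7.61% and 10.4% of all tested genes. FOXA2 had 49 to 60 counts per library in WT CDK9 and 102 to 198 in the mutant (edgeR adjusted p = 0.0198). The median log2 fold change of the 12 was -0.12 with the inhibitor and 0.07 in the mutant. RBM47, an RNA-binding protein, was at 15.4, 18.4 and 19.1 CPM in WT CDK9 and at 8.16, 7.12 and 6.19 CPM in the mutant (log2 fold change -1.30, SE 0.14, edgeR adjusted p = 3.44e-08). GRHL1, the paralogue of GRHL2, fell by 2.15 (SE 0.54) from a mean of 2.01 CPM. It had few reads, 36 to 41 counts per library in WT CDK9 and 8 to 18 in the mutant. ESRP2, the paralogue of ESRP1, was at a mean of 19.4 CPM in WT CDK9 cells and fell by 0.40 (SE 0.13, edgeR adjusted p = 0.028). Both paralogues were thus detected where GRHL2 and ESRP1 were at or near 0, but GRHL1 only at low counts.

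The proteins through which SNAI and ZEB factors repress were also counted. Of 15 corepressor genes, all tested, 1 fell with the inhibitor (6.67%, beside 2.73% of all tested genes), AJUBA (-0.26, SE 0.04, edgeR adjusted p = 9.2e-05). In the mutant LOXL2 rose (0.28) and 6 fell (40%, beside 10.4% of all tested genes), among them RCOR1, the CoREST scaffold (-0.58, SE 0.06, edgeR adjusted p = 1.32e-08), the Polycomb subunit SUZ12 (-0.31) and the ZEB partner CTBP2 (-0.29). LOXL2 is also on the list of mesenchymal genes, and it is counted in both lists. Of 14 regulators of SNAI protein stability, none was called with the inhibitor by edgeR or DESeq2, with 0 at an unadjusted edgeR p under 0.05. In the mutant COPS2, a signalosome subunit (-0.21), and GSK3B, the kinase that marks SNAI1 for degradation (-0.18), were lower, 14.3% of the list beside 10.4% of all tested genes. Of 8 neighbouring antisense and miRNA host genes listed, 6 were in the count table and 3 were tested, VIM-AS1, ZEB1-AS1 and SNAI3-AS1. None of them was called with the inhibitor or in the mutant by edgeR or DESeq2, with 1 and 2 at an unadjusted edgeR p under 0.05. Protein levels and stability were not measured in these libraries.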

How the data were processed

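RNA of 9 SKOV3 libraries was sequenced, 3 each of WT CDK9, ALK inhibitor-treated WT CDK9 and Tyr19Phe CDK9 cells, as the labels give them. The authors deposited whole-number read counts per gene, not normalized, with gene positions, lengths and biotypes. The submitters' processing notes name CASAVA, HISAT2 2.0.5, featureCounts 1.5.0-p3 and GRCh38 (hg38). The annotation release and strandedness are not given in the sources used here. Counts were filtered (filterByExpr, minimum count 10, minimum total 15) and then scaled by TMM, with library sizes taken over the kept genes. They were tested jointly over the 9 libraries with edgeR 4.0.16 in R 4.3.3 (quasi-likelihood test, 6 residual degrees of freedom, Benjamini-Hochberg adjustment over 16350 genes, two-sided). An exact permutation test of 3 against 3 cannot go below p = 0.1, so none was used. DESeq2 1.42.0, other scalings, filters and left-out libraries were alternatives. The script was tested on simulated data. Intervals are 95%.

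Members and gene lists were chosen with earlier results of these data known. The text names all 10 members; of each list, the 3 genes per direction with the smallest p among those called in each comparison with WT CDK9; for members called with an absolute log2 fold change of 0.5 or more, the 3 genes of nearest pattern; overlapping genes; and CDK9. SOX4, ESRP2, CDH1, SNAI3-AS1, ERBB2, KRT7, KRT8, MUC16 and EMX2, and repeat mentions in another contrast, were added after their values were seen. Some list genes that this rule names are not reported here. The 5 Mb neighbourhoods were described with the same fit. Gene models were set beside GENCODE 44, and sequences are from RefSeq tables (GRCh38.p14). Deviations of libraries with the same replicate number correlated at -0.0116 to 0.0260 over 9 pairs, so the numbers were not taken as pairs.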

Additional observations from a re-analysis of the deposited data

How the results depend on the processing

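Of 408 recomputed member fold changes, 372 kept their direction and side of the threshold, 11 lost the call, 15 gained one and 10 changed sign, and of 153 recomputed counts 139 stayed within 1.5 times. The calls of SNAI2 in all 3 comparisons, FN1 with the inhibitor, VIM and EPCAM in the mutant, and VIM, FN1 and EPCAM between mutant and inhibitor were kept in 17 of 17 alternatives. With the inhibitor, 4 members were called; at an adjusted p under 0.01 (edgeR) there were 2, and without 1 library 2 to 3. In the mutant, 3 were called, but 5 with upper quartile scaling, with library size alone, with no filter, with protein-coding genes only and with the replicate block, which added FN1 and ZEB1 each time (ZEB1 also passed with at least 10 counts in every library and with only the 2 groups compared); without 1 library there were 3 to 4. Between mutant and inhibitor, 4 were called in every alternative. At an adjusted p under 0.01 the counts of all called genes were 427, 1850 and 2088 in place of 744, 2940 and 3387. Without 1 library, all genes called with the inhibitor numbered 491 to 608, and list genes 13 to 18 in place of 20. Only values without a call changed sign. EPCAM with the inhibitor was 0.0062 with library size alone, 0.0015 when thinned, and -0.089 to 0.059 without 1 library (0.05 without WT CDK9 replicate 3, 0.059 without ALK inhibitor replicate 1). ZEB2 in the mutant was 0.0075 with the replicate block and -0.47 to 0.54 without 1 library (0.54 without WT CDK9 replicate 2, 0.06 without Tyr19Phe CDK9 replicate 2). TWIST1 between mutant and inhibitor was -0.056 to 0.20 without 1 library (-0.02 without ALK inhibitor replicate 3, -0.056 without Tyr19Phe CDK9 replicate 1, -0.03 without Tyr19Phe CDK9 replicate 2). The cause was not tested.

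In the check of pairing, 3 of 9 libraries correlated best with their own number, and the replicate block changed no member call other than the 2 named. Depth limits ZEB2 and SNAI1, which had at most 118 counts in any library and wide intervals, and ESRP1, which was not tested. The Tyr19Phe CDK9 libraries were deeper than the others, and the mutant is a single line as labelled.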
